A study of Saccharomyces cerevisiae YPS1009 with 18 samples.

Results

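Ribonucleotide reductase was followed in the plasmid screen through 9 genes: the subunit genes RNR1 (YER070W), RNR2 (YJL026W), RNR3 (YIL066C) and RNR4 (YGR180C), and the regulators SML1 (YML058W), DIF1 (YLR437C), WTM1 (YOR230W), DUN1 (YDL101C) and RFX1 (YLR176C). They were taken by systematic name and matched 10 of the 4872 plasmid rows, since RNR4 was present as 2 entries. After the filter on low counts 9 of the 10 rows, covering 8 genes, were among the 4507 plasmids tested, and SML1 was not. The genes were chosen by name with the day 28 barcode values of RNR2 in both strains already known. Day 28 values of these genes are therefore a description, and the day 28 counts past the threshold below are given only beside those of all plasmids. Tests of single genes of the set are given for day 1 and for the starting pools.

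The screen used MoBY 1.0, a library of barcoded low-copy plasmids, each carrying 1 yeast gene between its native flanks. Both hosts were haploid MATa ho-Δ1 derivatives of the wild oak-soil isolate YPS1009. AGY1612 carries a duplicated chromosome XII (YPS1009_Chr12) and his3-Δ, with His3MX6 and NatMX as markers, and AGY1611 is the euploid strain with NatMX. Ploidy is taken from the study's methods and a header line of the count table, because the sample labels hold only strain numbers. Each ploidy is represented by a single strain. Cells grew in rich medium with G418, the drug that selects for the plasmids. The 3 times were T0 (the frozen starting pool), day 1 and day 28, with 3 libraries per strain and time, 18 libraries together. For the later times, culture aliquots were first grown as lawns on plates with the same drug, so a barcode was counted only where its cell could still divide. The replicates came from 2 transformations of the library, and which replicates share one is not given, so part of the spread measured here may be technical. Fewer cells with a plasmid and fewer plasmid copies per cell cannot be told apart.

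Ribonucleotide reductase converts ribonucleotides into deoxyribonucleotides, the building blocks of DNA. The budding yeast enzyme pairs a large subunit, usually Rnr1, with a small subunit made of Rnr2, which holds the di-iron tyrosyl radical, and Rnr4, which stabilises that form. Sml1 inhibits Rnr1, Dif1 carries the small subunit into the nucleus, and Wtm1 holds it there. When DNA is damaged or replication stalls, the Mec1-Rad53-Dun1 kinase cascade leads to loss of Sml1 and Dif1 and relieves repression by Rfx1 (Crt1) of RNR2, RNR3 and RNR4. DIF1 and RFX1 lie on chromosome XII, so AGY1612 has an additional chromosomal copy of each beside the plasmid. The same holds for SWI6 (YLR182W) and TRX1 (YLR043C), which are described further below.

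Barcode abundance is given as CPM (barcode counts per 1e6 counts, with TMM-scaled library sizes), and group averages as mean ± SD (n = 3). In AGY1612 the libraries totalled 3491412 to 5211070 counts (T0), 1222135 to 1925967 (day 1) and 503569 to 1338206 (day 28). In AGY1611 they totalled 6138798 to 6298768 (T0), 904993 to 1104929 (day 1) and 717911 to 1302971 (day 28). Replicates were tight at T0 and wide later, but AGY1612 T0 replicate 1 stood apart from replicates 2 and 3. The chi-square of counts per degree of freedom, which measures how far 2 libraries differ, was 11.5 and 15.3 for pairs with replicate 1. For replicates 2 and 3 it was 1.84. The spread was taken as the root of the edgeR common dispersion, 1 value shared by all tested plasmids of a group, beyond counting noise. This coefficient of variation was 11.8% (AGY1612) and 6.07% (AGY1611) at T0, 67.5% and 70.5% at day 1, and 72.5% and 82.2% at day 28.

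In the starting pools the 9 plasmids spanned most of the library's range. RNR4 entry 1 stood at the 91.1st percentile of all plasmids tested (mean 388 CPM over the 6 T0 libraries) and RNR4 entry 2 at the 84.8th. RNR2 (196 CPM) and WTM1 (178 CPM) lay near the median of 181 CPM, and DIF1 (98.4 CPM) and RNR3 (88.3 CPM) were the scarcest. These levels describe the composition of the library and not the expression of the genes. No difference in starting abundance between AGY1612 and AGY1611 was called. The log2 differences ran from -0.05 to 0.14 (SE 0.35 to 0.84). None of the 9 passed FDR < 0.1 in the edgeR quasi-likelihood test, nor did any of the 4507 plasmids (0%). At an unadjusted p under 0.05 the number of plasmids was also 0. The fit shares 1 estimate of the spread per plasmid over all 18 libraries, and the spread was far wider after T0. That widened the error at T0, so the test could miss real differences, and these counts of 0 do not show equal pools.

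RNR2, the radical-bearing small subunit, had the lowest mean of the 9 tested plasmids in every group after T0. In AGY1612 it measured 148, 211 and 219 CPM at T0, then 21.5, 37.8 and 44.7 CPM at day 1 and 24.6, 38.4 and 33.5 CPM at day 28. In AGY1611 it measured 205, 220 and 173 CPM at T0 and 35.5, 58.1 and 18.8 CPM at day 1. All day 1 libraries of both strains lay below all T0 libraries. At day 28 the AGY1612 libraries still held 12, 44 and 31 RNR2 barcode counts, while the AGY1611 libraries held 0, 1 and 0. A level of 3 counts corresponds to 2.71, 2.64 and 4.54 CPM in those 3 AGY1611 libraries, and every AGY1612 library at day 28 was above that level. This level covers sequencing depth only, and not loss of cells in culture or at plating. Of the 4872 rows, 499, 945 and 852 were at 0 in these AGY1611 libraries. In the AGY1612 libraries at day 28 the rows at 0 numbered 635, 804 and 633.

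Pooled over the 3 libraries, RNR2 at day 1 was 5.75-fold lower than at T0 in AGY1612 (exact 95% interval 4.90 to 6.78) and 5.29-fold lower in AGY1611 (4.37 to 6.46). Such intervals cover counting error only, and PCR reads are not independent molecules. The fitted day 1 change was -2.48 ± 0.70 in AGY1612 (log2, SE; FDR = 0.0842, edgeR quasi-likelihood test) and -2.41 ± 0.70 in AGY1611 (FDR = 0.140), so only the AGY1612 loss passed the threshold of FDR < 0.1. That call was lost when any single library of AGY1612 at T0 or day 1, or of AGY1611 at T0, was left out (FDR = 0.107 to 0.289, edgeR). The AGY1611 change passed in 10 of the 18 such fits, with FDR between 0.0608 and 0.474 over all of them. The difference between the strains in the day 1 response was -0.07 ± 0.93 (log2, AGY1612 minus AGY1611, 95% interval -2.10 to 1.97; FDR = 0.998, edgeR), an interval wide enough to hold a 3-fold difference either way.

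After day 1 the 2 strains parted. The pooled RNR2 level at day 28 lay within counting error of day 1 in AGY1612, with a day 1 over day 28 ratio of 0.98 (exact 95% interval 0.75 to 1.29), whereas in AGY1611 it was 110-fold lower than at day 1 (19.2 to 4364). Against T0, the day 28 loss was 5.63-fold in AGY1612 (4.55 to 7.05) and 579-fold in AGY1611 (104 to 22877). At day 28 itself the pooled RNR2 level was 98.9-fold lower in AGY1611 than in AGY1612 (17.3 to 3950). Every AGY1611 figure at day 28 rests on 1 count, which is why the intervals span more than 2 orders of magnitude. These are the values that drew attention to the gene and they are given as a description.

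**Figure D1:**
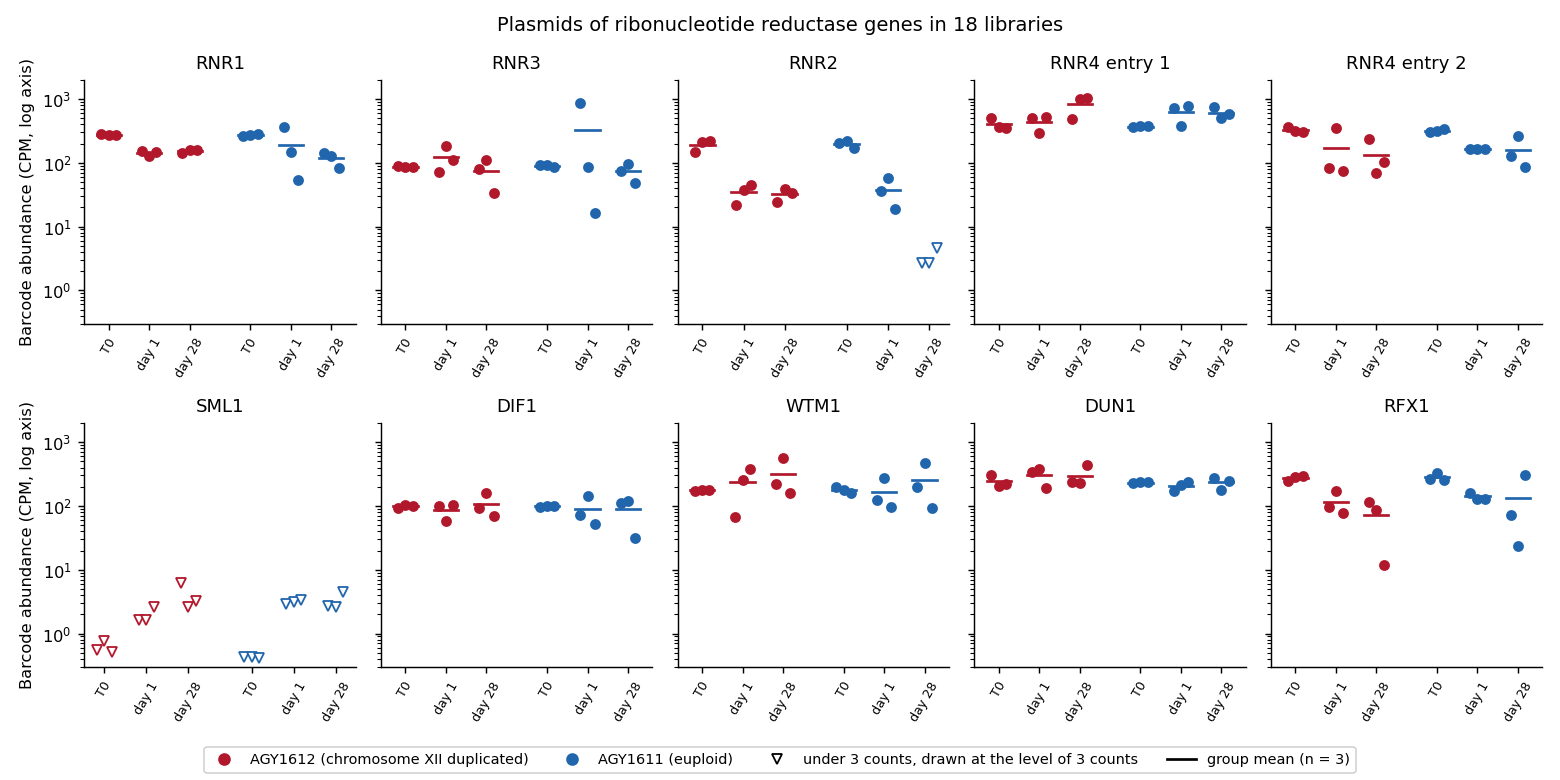
Barcode abundance (CPM, log axis) of the 10 plasmid rows in each of the 18 libraries, AGY1612 (red) left of AGY1611 (blue), with T0, day 1 and day 28 in order, a bar at the group mean (n = 3) where every library held at least 3 counts, and open triangles at the level of 3 counts for libraries below it. RNR2 sits at 24.6 to 38.4 CPM in AGY1612 at day 28, while all 3 AGY1611 libraries are below 3 counts, and SML1 is below 3 counts in every library.

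Rnr4, the partner of Rnr2 in the small subunit, was represented by 2 plasmids that behaved differently. Entry 1 measured 504, 364 and 353 CPM at T0, 504, 296 and 516 CPM at day 1 and 489, 982 and 1028 CPM at day 28 in AGY1612. In AGY1611 it measured 362, 375 and 371 CPM at T0, 724, 381 and 786 CPM at day 1 and 746, 507 and 572 CPM at day 28. In AGY1611 all later libraries lay above all T0 libraries, whereas in AGY1612 the ranges overlapped at both times. The day 1 change was 0.11 ± 0.35 in AGY1612 (FDR = 0.881) and 0.77 ± 0.35 in AGY1611 (FDR = 0.279), neither past the threshold in edgeR. At day 28 the fitted change from T0 was 1.03 ± 0.35 in AGY1612 and 0.72 ± 0.35 in AGY1611.

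Entry 2 of RNR4 was lower after T0. It measured 368, 315 and 305 CPM at T0, 83.9, 346 and 73.9 CPM at day 1 and 232, 69.9 and 102 CPM at day 28 in AGY1612. The AGY1611 libraries held 302, 317 and 338 CPM at T0, 162, 164 and 161 CPM at day 1 and 127, 261 and 84.8 CPM at day 28. All later AGY1611 libraries lay below T0, and in AGY1612 only replicate 2 at day 1 reached into the T0 range. For entry 2 the day 1 change was -0.97 ± 0.57 in both strains (FDR = 0.332 in AGY1612 and 0.371 in AGY1611, edgeR), not past the threshold. Without AGY1612 replicate 2 of day 1 the AGY1612 change was -1.86 (FDR = 0.0956, edgeR). At day 28 the change was -1.30 ± 0.58 in AGY1612 and -1.01 ± 0.57 in AGY1611.

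The ratio of entry 1 to entry 2 within a library removes depth and scaling from this comparison. On the log2 scale the ratio averaged 0.29 ± 0.14 (T0), 1.71 ± 1.68 (day 1) and 2.73 ± 1.46 (day 28) in AGY1612, and 0.21 ± 0.07 (T0), 1.88 ± 0.58 (day 1) and 2.08 ± 0.98 (day 28) in AGY1611. Among 44 genes with 2 tested entries the median absolute difference between the entries' changes from T0 was 1.28 (AGY1612) and 0.95 (AGY1611) at day 1, and 1.58 and 1.66 at day 28. The RNR4 difference was 1.08 and 1.74 at day 1, and 2.34 and 1.73 at day 28, larger than that of 17 and 37 pairs at day 1 and of 31 and 23 pairs at day 28. The RNR4 difference was thus below the median of the pairs at day 1 in AGY1612 and above it in the other 3 comparisons. How the 2 entries differ in construction is not given in the sources used here.

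**Figure D2:**
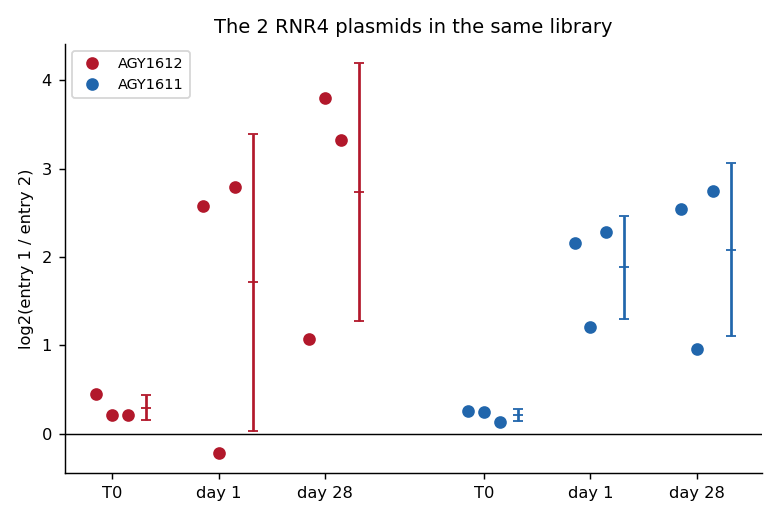
Ratio of the 2 RNR4 plasmids within each library (log2 of entry 1 over entry 2), AGY1612 (red) left of AGY1611 (blue), points for the 3 libraries of a group and a bar for mean ± SD. Ratios lie between 0.13 and 0.45 at T0 and above 0.95 in all later libraries but AGY1612 replicate 2 at day 1, at -0.23.

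RNR1, which encodes the main large subunit, was below its starting level in most later libraries. In AGY1612 it measured 278, 274 and 269 CPM at T0, 151, 128 and 147 CPM at day 1 and 140, 160 and 161 CPM at day 28. Those 6 later libraries were close together and all below T0. RNR1 in AGY1611 measured 266, 270 and 279 CPM at T0, 367, 149 and 53.1 CPM at day 1 and 142, 129 and 81.7 CPM at day 28, so day 1 straddled T0 and day 28 lay below it. The day 1 change was -0.95 ± 0.52 in AGY1612 (FDR = 0.302) and -0.52 ± 0.51 in AGY1611 (FDR = 0.601), neither past the threshold in edgeR. Without AGY1611 replicate 3 of day 1 the AGY1611 change was 0.19. At day 28 the change from T0 was -0.83 ± 0.52 in AGY1612 and -1.20 ± 0.52 in AGY1611.

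RNR3 encodes the alternative large subunit, normally scarce and induced by DNA damage. Its T0 level was the lowest of the tested plasmids, at 89.9, 86.5 and 84.2 CPM in AGY1612 and 90.9, 90.9 and 87.2 CPM in AGY1611. At day 1 it measured 72.8, 181 and 110 CPM in AGY1612, against 874, 84.6 and 16.6 CPM in AGY1611. The AGY1611 libraries thus spanned a wide range around T0, with counts of 911, 80 and 15. The day 1 change was 0.48 ± 0.84 in AGY1612 (FDR = 0.784) and 1.86 ± 0.87 in AGY1611 (FDR = 0.289, edgeR), and a single library set the AGY1611 value. Without AGY1611 replicate 1 of day 1 it was -0.82 (FDR = 0.579), and without replicate 3 it was 2.69 (FDR = 0.0674, edgeR). At day 28 RNR3 was at 80.1, 112 and 33.5 CPM in AGY1612 and 74.1, 96.7 and 48.4 CPM in AGY1611, with changes of -0.21 ± 0.85 and -0.29 ± 0.85 from T0.

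The inhibitors and localisation factors could be followed only in part. SML1, the Rnr1 inhibitor, had 4 counts in the whole series. AGY1612 libraries held 0 counts at every time, and AGY1611 libraries held 1, 0 and 2 counts at T0, 0, 0 and 1 at day 1 and 0 throughout day 28. The plasmid was close to undetectable from the start, and no change can be read from it.

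DIF1, which brings the small subunit into the nucleus, had no fitted change beyond its SE, and its later libraries spread to both sides of T0. It measured 94.0, 102 and 101 CPM at T0, 98.8, 57.7 and 102 CPM at day 1 and 94.5, 158 and 70.3 CPM at day 28 in AGY1612. DIF1 in AGY1611 measured 95.4, 100 and 98.4 CPM at T0, 72.9, 143 and 52.0 CPM at day 1 and 113, 121 and 31.8 CPM at day 28. The later ranges overlapped T0 in both strains. At day 1 DIF1 had changes of -0.20 ± 0.64 in AGY1612 and -0.14 ± 0.64 in AGY1611, and the change at day 28 was 0.12 and -0.14 in the same strain order.

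WTM1, the nuclear anchor of the small subunit, varied widely between replicates. It measured 173, 180 and 178 CPM at T0, 66.8, 253 and 384 CPM at day 1 and 218, 563 and 159 CPM at day 28 in AGY1612. WTM1 in AGY1611 measured 199, 177 and 161 CPM at T0, 123, 274 and 95.1 CPM at day 1 and 196, 467 and 93.8 CPM at day 28. The later libraries lay on both sides of T0. At day 1 WTM1 had changes of 0.40 ± 0.62 in AGY1612 and -0.13 ± 0.62 in AGY1611, not past the threshold, and the day 28 change was 0.83 and 0.50.

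DUN1, the kinase that acts on Sml1, Dif1 and Rfx1, had later libraries on both sides of its starting level. It measured 305, 205 and 219 CPM at T0, 345, 375 and 191 CPM at day 1 and 234, 231 and 431 CPM at day 28 in AGY1612. DUN1 in AGY1611 measured 226, 237 and 234 CPM at T0, 170, 215 and 234 CPM at day 1 and 277, 180 and 245 CPM at day 28. At day 1 DUN1 had changes of 0.32 ± 0.40 in AGY1612 and -0.17 ± 0.40 in AGY1611, with 0.30 and 0.01 at day 28. None of these exceeded its SE, and the ranges overlapped T0 at both times.

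RFX1, the repressor of the RNR genes, was below its starting level at day 1 in every library. It measured 246, 284 and 292 CPM at T0, 96.0, 172 and 78.2 CPM at day 1 and 115, 86.5 and 11.9 CPM at day 28 in AGY1612. RFX1 in AGY1611 measured 265, 323 and 256 CPM at T0, 162, 130 and 131 CPM at day 1 and 72.3, 23.7 and 306 CPM at day 28. The groups did not overlap at day 1 in either strain or at day 28 in AGY1612, while at day 28 in AGY1611 replicate 3 was back within the T0 range. For RFX1 the day 1 change was -1.25 ± 0.72 in AGY1612 (FDR = 0.323) and -0.997 ± 0.72 in AGY1611 (FDR = 0.457), not past the threshold in edgeR. At day 28 it was -1.96 ± 0.74 in AGY1612, or -1.32 without replicate 3, and -1.08 ± 0.72 in AGY1611, or -2.43 without its replicate 3.

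Across the set, 1 of the 9 tested plasmids passed FDR < 0.1 at day 1 against T0 in AGY1612 (RNR2), where 2.88% of all 4507 plasmids did. RNR2 at day 1 shares cultures and T0 libraries with its known day 28 values, so nothing is read from that count. In AGY1611 none passed, where 0.288% of all did, and 3 of the 9 had an unadjusted p under 0.05, as did 16.6% of all plasmids. The median change of the 9 was -0.20 in AGY1612 and -0.17 in AGY1611, against 0.13 and 0.05 over all plasmids. Groups did not overlap between day 1 and T0 for 3 of the 9 plasmids in AGY1612 (RNR1, RNR2 and RFX1) and 4 in AGY1611 (RNR2, RFX1 and both RNR4 entries), shares near those of all plasmids (44.2% and 40.2%). None of the 9 differed between strains in the day 1 response, and none of the 4507 plasmids did (0%), although 172 of the 4507 and 0 of the 9 had an unadjusted p under 0.05. The 9 strain differences ran from -1.38 ± 1.20 (RNR3) to 0.53 ± 0.88 (WTM1).

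At day 28 against T0, 3 of the 9 were past the threshold in AGY1612 and 1 in AGY1611, where 20.0% and 14.6% of all plasmids were. In AGY1612 these were RNR4 entry 1 upward, as for 7.03% of all plasmids, and RNR2 and RFX1 downward, as for 13.0%. In AGY1611 it was RNR2 downward, as for 9.50%. Groups did not overlap between day 28 and T0 for 4 of the 9 in each strain (48.4% of all plasmids in AGY1612 and 46.2% in AGY1611). Blocking on the replicate number gave an AGY1612 count of 2, without RFX1. The median day 28 change of the 9 was -0.21 (AGY1612) and -0.29 (AGY1611), against 0.19 and 0.16 over all plasmids. Between day 1 and day 28, 0 and 1 of the 9 (RNR2) were past the threshold, with 1.53% and 0.976% of all plasmids. For the strain difference in the day 28 response the count was 1 of the 9 (RNR2), with 0.266% of all. RNR2 day 28 values were known beforehand, so these counts are no evidence about the genes and nothing is read from them. Day 1 and day 28 comparisons share their T0 libraries.

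**Figure D3:**
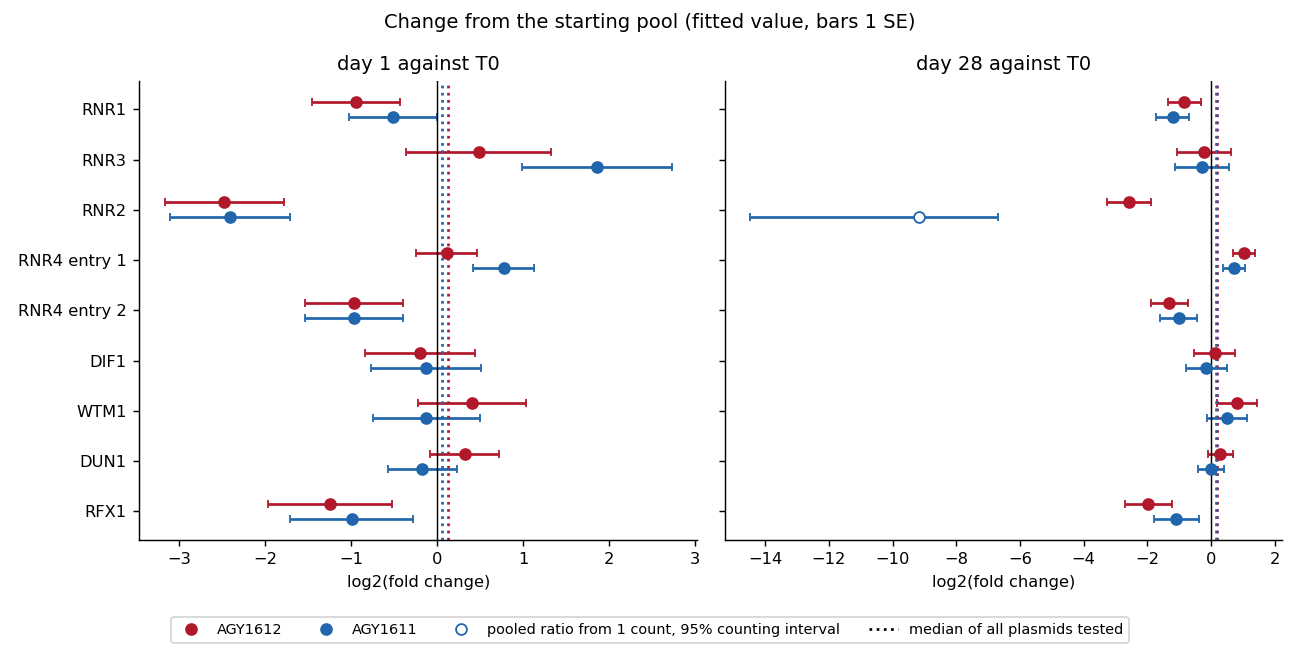
Change from T0 (log2 fold change, fitted value ± 1 SE) of the 9 tested plasmids at day 1 (left) and day 28 (right), AGY1612 (red) above AGY1611 (blue), with dotted lines at the median of all plasmids tested. The open symbol is RNR2 in AGY1611 at day 28, drawn as the pooled ratio with its exact 95% counting interval because it rests on 1 count. RNR2 lies at -2.48 and -2.41 at day 1, and at day 28 it lies lower in AGY1611 than in AGY1612.

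**Figure D4:**
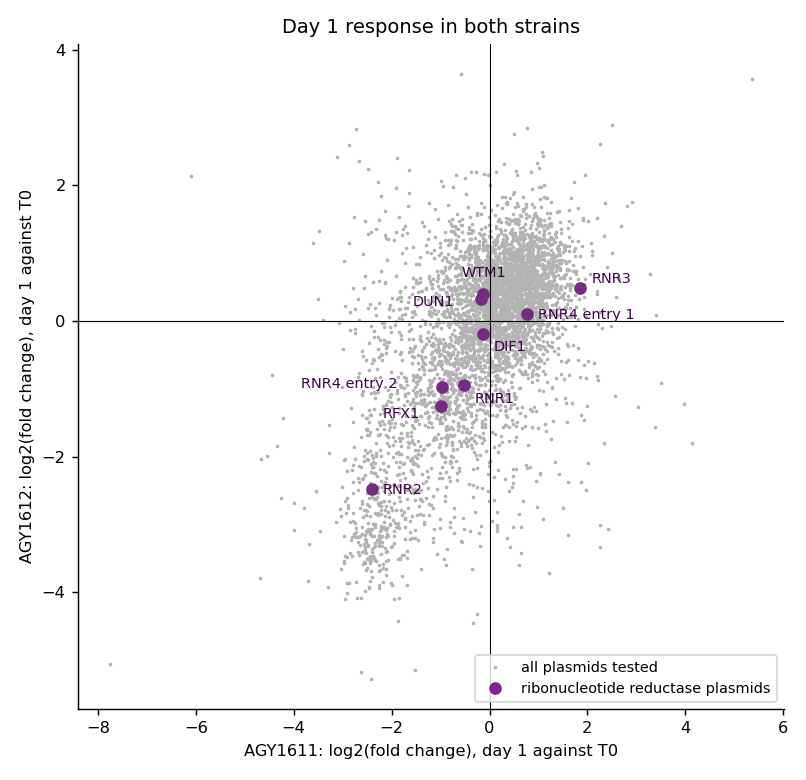
Day 1 change from T0 (log2 fold change) in AGY1612 (vertical axis) against AGY1611 (horizontal axis) for all 4507 plasmids tested (grey), with the 9 ribonucleotide reductase plasmids in purple. RNR2 lies low in both strains, at -2.48 and -2.41, RNR1, RFX1 and RNR4 entry 2 are moderately low in both, and RNR3 stands to the right through 1 AGY1611 library.

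Genes that act around ribonucleotide reductase were described from 4 lists holding 46 genes, of which 35 had a row and 32 were tested, as 34 plasmids. At day 1 against T0, 1 of the 34 rose and 1 fell in AGY1612 and none passed in AGY1611. That is 5.88% and 0% of the 34, beside 2.88% and 0.288% of all plasmids. At day 28, 3 rose and 5 fell in AGY1612 and 3 rose and 4 fell in AGY1611, that is 23.5% and 20.6% of the 34, near the 20.0% and 14.6% of all plasmids. No plasmid of the lists passed for a strain difference at either time, where 0% (day 1) and 0.266% (day 28) of all plasmids did. FDR values of these genes come from edgeR over all 4507 plasmids.

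Checkpoint signalling genes, which apart from CHK1 act upstream of Dun1, comprised 11 tested plasmids. MRC1 encodes the replication fork mediator that passes the signal to Rad53. Its entry 1 measured 329 ± 14.9 (T0), 64.1 ± 8.03 (day 1) and 30.0 ± 20.2 CPM (day 28) in AGY1612, and 344 ± 10.1, 140 ± 77.6 and 84.6 ± 46.7 CPM in AGY1611. It fell in AGY1612 at day 1 (-2.36 ± 0.60, FDR = 0.0635) and day 28 (-3.46 ± 0.64, FDR = 0.00157) and in AGY1611 at day 28 (-2.02 ± 0.59, FDR = 0.0349). Entry 2 of MRC1 did not pass, with day 28 changes of 0.37 ± 0.43 (FDR = 0.608) and 0.28 ± 0.43 (FDR = 0.723). The 2 entries of CHK1, the checkpoint kinase that acts beside Rad53, also differed. At day 28 entry 1 fell in AGY1611 (-1.92 ± 0.66, FDR = 0.0688) and entry 2 rose in AGY1612 (1.22 ± 0.45, FDR = 0.0728), so RNR4 was not alone in having entries that moved apart.

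Other regulators of ribonucleotide reductase comprised 9 tested plasmids. HUG1 encodes a small protein that binds and inhibits the small subunit, and its gene lies next to SML1 in the RefSeq annotation. It measured 337 ± 4.96 (T0), 615 ± 318 (day 1) and 628 ± 222 CPM (day 28) in AGY1612, and 340 ± 2.22, 910 ± 294 and 1105 ± 234 CPM in AGY1611. The AGY1611 day 28 libraries, at 837, 1263 and 1215 CPM, were all above T0, and HUG1 rose there (1.70 ± 0.37, FDR = 0.00638). In AGY1612 at day 28 it was at 0.90 ± 0.37 (FDR = 0.109), and the strain difference did not pass. WTM2, the paralogue and neighbour of WTM1, had day 28 changes of 0.61 in AGY1612 and 0.99 in AGY1611 and did not pass. How much of a neighbouring gene each insert holds is not given in the sources used here.

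RAD6, a ubiquitin-conjugating enzyme, rose in AGY1612 at day 1 (1.58 ± 0.44, FDR = 0.0838), with 307, 1181 and 626 CPM against 218, 255 and 233 CPM at T0. The cell-cycle factors SWI4 and SWI6, which act in transcription at the G1/S transition, were lower at day 28. SWI4 fell in AGY1612 (-4.10 ± 1.34, FDR = 0.0459), where its day 28 libraries held 12.3, 0 and 0 CPM against 59.7, 57.5 and 62.8 CPM at T0, and the size of that fold depends on the libraries at 0. SWI6 fell in AGY1611 (-1.54 ± 0.48, FDR = 0.0473), at 88.5, 155 and 72.7 CPM against 313, 309 and 300 CPM at T0. The second fall among these 9 plasmids in AGY1612 was NHP6A, a chromatin protein named here after its values were seen (-1.58 ± 0.53, FDR = 0.0518).

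Genes for the iron cofactor and for the reductants of the enzyme comprised 7 tested plasmids. GRX1, a glutaredoxin that can supply electrons to the enzyme, fell at day 28 in both strains, with log2 changes of -2.08 ± 0.57 in AGY1612 (FDR = 0.0199) and -2.48 ± 0.57 in AGY1611 (FDR = 0.00912). It measured 73.9, 27.1 and 80.0 CPM at day 28 against 254, 248 and 258 CPM at T0 in AGY1612, and 34.3, 43.1 and 59.0 CPM against 253, 256 and 251 CPM in AGY1611. All day 28 libraries of GRX1 lay below all T0 libraries. TRX1, a thioredoxin, fell in AGY1612 at day 28 (-1.25 ± 0.49, FDR = 0.0936) and TRR1, the reductase that recycles thioredoxin, rose in AGY1611 at day 28 (1.05 ± 0.40, FDR = 0.0996). With the replicate block the TRR1 call was lost (1.03, FDR = 0.120).

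Genes for other steps to deoxyribonucleotides comprised 7 tested plasmids. At day 28, 2 of the 7 rose in AGY1612 and 1 in AGY1611, and none fell. Of all plasmids, 7.03% rose and 13.0% fell in AGY1612. In AGY1611 14.6% of all plasmids passed in either direction and 9.50% downward. Whether the list rose as a set was not tested. DFR1, dihydrofolate reductase, rose in AGY1612 at day 28 (1.61 ± 0.43, FDR = 0.0174), at 423, 892 and 416 CPM against 194, 184 and 191 CPM at T0. In AGY1611 DFR1 was at 1.03 ± 0.42 (FDR = 0.133), and the strain difference did not pass. CDC8, thymidylate kinase, rose in AGY1612 at day 28 (1.08 ± 0.43, FDR = 0.0998) and ADK1, adenylate kinase, rose in AGY1611 at day 28 (1.38 ± 0.50, FDR = 0.0861). With the replicate block the CDC8 call was lost (1.05, FDR = 0.124). The calls of MRC1 entry 1 and DFR1 at day 28 in AGY1612, of HUG1 at day 28 in AGY1611 and of GRX1 at day 28 in both strains held when each of the 18 libraries was left out in turn. The other 12 of the 17 calls were lost in at least 1 of those fits. The calls of CHK1 entry 2, TRR1, ADK1 and CDC8 were also lost with RLE scaling and with total counts, and of 28 settings TRR1 and CDC8 kept theirs in 12 each and TRX1 in 10.

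The plasmids whose pattern was most like that of RNR2 over the log2 CPM of the 18 libraries were VPS9 (Pearson r = 0.94), FLC2 (r = 0.94) and OAR1 (r = 0.91). VPS9 encodes a guanine nucleotide exchange factor of vacuolar trafficking, FLC2 a membrane protein linked to flavin transport, and OAR1 a mitochondrial fatty acid synthesis enzyme. The libraries share their groups, so these r values describe the order of the 6 groups as much as the plasmids, and no p is given. VPS9 measured 252, 202 and 215 CPM at T0, 59.0, 40.5 and 9.45 CPM at day 1 and 20.5, 9.61 and 14.1 CPM at day 28 in AGY1612. In AGY1611 VPS9 measured 216, 210 and 224 CPM at T0 and 40.3, 58.1 and 18.8 CPM at day 1, with 1, 0 and 0 counts at day 28. All 3 plasmids were close to absent in AGY1611 at day 28, FLC2 with 3, 4 and 2 counts and OAR1 with 2, 0 and 0.

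In AGY1612 at day 28 these plasmids were lower than RNR2 in most libraries. FLC2 stood at 18.5, 9.61 and 47.6 CPM and OAR1 at 4.11, 7.86 and 45.4 CPM, against 24.6, 38.4 and 33.5 CPM for RNR2. They were picked for following RNR2 over these same libraries, so their own changes are not tested. Within the set, the correlation over the 18 libraries was 0.64 between RNR2 and RNR1 and -0.70 between the 2 RNR4 entries, with the same groups shared.

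**Figure D5:**
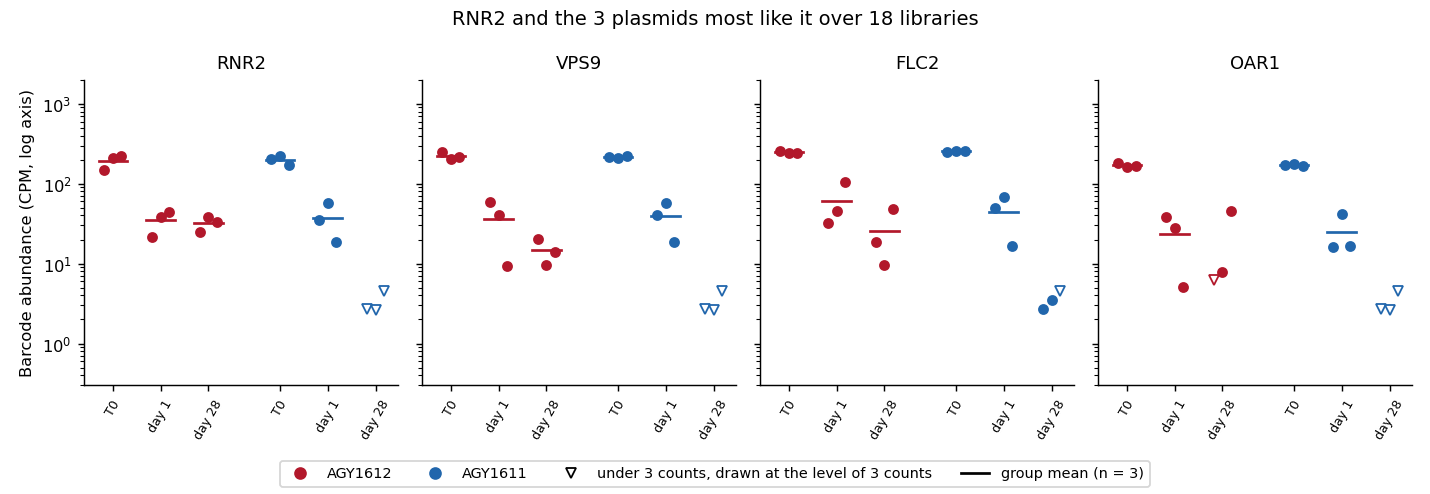
Barcode abundance (CPM, log axis) of RNR2 and the 3 plasmids with the highest Pearson r to it, per library, AGY1612 (red) left of AGY1611 (blue), bars at group means (n = 3), open triangles at the level of 3 counts for libraries below it. All 4 lie lower in every day 1 library than in every T0 library of the same strain. All 4 hold 4 counts or fewer in each AGY1611 library at day 28. In AGY1612 at day 28 RNR2 is at 24.6 to 38.4 CPM, VPS9 at 9.61 to 20.5, FLC2 at 9.61 to 47.6 and OAR1 at 4.11 to 45.4.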

How the data were processed

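The authors pooled PCR-amplified plasmid barcodes, sequenced them and deposited raw counts per plasmid, with 1 column per library. TMM scaling, which the study applied with edgeR, is not applied in the deposited counts, and the counting program is not given in the sources used here. Every one of the 18 sample columns entered the fits. Of 4872 rows, 86 were 0 in every library. The empty vector was kept out of tests. Names and gene order came from the RefSeq table of strain S288C, to which 4865 rows were matched, and no coordinates are given.

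Tests were run in edgeR 4.0.16 under R 4.3.3, with TMM factors, filterByExpr by group, 1 coefficient per group over all 18 libraries, the two-sided quasi-likelihood F-test and Benjamini-Hochberg adjustment over 4507 plasmids (FDR < 0.1, the relaxed threshold of the study). An SE is the absolute log2 fold change over the root of its F statistic. Log2 CPM used a prior count of 2. Pooled ratios of RNR2 used summed counts with exact 95% intervals.

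The genes, gene lists and tests were chosen with earlier results of these data known. Named beyond the 9 genes are HUG1 and WTM2, in each of 4 lists the up to 4 genes of lowest p among those past the threshold, and the 3 plasmids most correlated with RNR2. NHP6A was added outside this rule after its values were seen.

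Replicate numbers come from the sample titles. Libraries of day 1 and day 28 with the same number are aliquots of one culture, and their deviations from the group means correlated (r = 0.14 to 0.31 in AGY1612 and 0.33 to 0.50 in AGY1611). T0 libraries with the same number as a later library did not (r from -0.07 to 0.09). Alternatives were RLE scaling, total counts, other filters, a replicate block, the libraries of each comparison alone, DESeq2 1.42.0, limma 3.58.1 voom with group weights, FDR < 0.05 and each library left out in turn.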

Additional observations from a re-analysis of the deposited data

Results flagged for a closer look

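RNR2 drew attention because its change between T0 and day 28 differed between the strains. The pooled loss by day 28 was 103-fold smaller in AGY1612 than in AGY1611 (18.4 to 4062). That range carries only the exact 95% counting interval of the AGY1611 loss. The AGY1612 loss was held fixed, so its own counting error is left out. Counts at day 28 were 12, 44 and 31 in the AGY1612 libraries and 0, 1 and 0 in the AGY1611 libraries. These day 28 values were known when the genes were chosen, so they are a description. At day 1 the same comparison gave a difference of -0.07 ± 0.93 on the log2 scale. The AGY1611 value rests on 1 count.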

How the results depend on the processing

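With edgeR over the libraries of each comparison alone, the number of the 9 plasmids past the threshold was 3 at day 1 against T0 in AGY1612 (1 in the reported fit) and 3 in AGY1611 (0), 5 at day 28 against T0 in AGY1612 (3) and 2 in AGY1611 (1), and 0 for day 28 against day 1 in AGY1611 (1). With limma voom and group weights it was 0 at day 1 in AGY1612, 1 at day 28 against T0 in AGY1612, 0 for day 28 against day 1 in AGY1611 and 0 for the strain difference at day 28 (1). At FDR < 0.05 it was 0 at day 1 and 1 at day 28 in AGY1612. DESeq2 gave 1 at day 1 and 2 at day 28 in AGY1611, total counts gave 2 at day 28 in AGY1611, and a minimum of 10 counts in 3 libraries gave 1 at day 1 in AGY1611. The cause of these shifts was not tested.

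Leaving out each of the 18 libraries gave 0 to 1 at day 1 in AGY1612, 0 to 2 at day 1 in AGY1611, 1 to 4 at day 28 in AGY1612, 1 to 2 at day 28 in AGY1611, 0 to 0 for day 28 against day 1 in AGY1612, 1 to 2 in AGY1611, 0 to 1 for the strain difference at day 28, and 0 to 0 for the strain difference at day 1 and for the starting pools. The 0 for the strain difference at day 28 came without any one T0 library of either strain. The day 28 call of RNR4 entry 1 in AGY1612 was lost without AGY1612 T0 replicate 2 (0.96) or 3 (0.94) and with total counts (0.73). That of RFX1 in AGY1612 was lost without any T0 library of either strain, AGY1612 day 1 replicate 1, or AGY1612 day 28 replicate 2 or 3, with voom and with the replicate block (-1.95). The block changed no other call of the 9 plasmids, and of the 17 calls in the gene lists it ended those of TRR1 and CDC8.

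Directions were compared only for the 28 of 81 values that were past the threshold or beyond 1 SE of 0. Each value was refitted in 28 settings, and over all these values and settings together 6 results had the opposite direction. RNR1 at day 1 in AGY1611 ran from -1.42 to 0.19 over the fits that left out a library, with 0.19 without AGY1611 day 1 replicate 3. Without AGY1611 day 1 replicate 1 the value of RNR1 for day 28 against day 1 in AGY1611 was 0.22 (range -1.29 to 0.22). Without that same library RNR3 was -0.82 at day 1 in AGY1611 (range -0.82 to 2.69), 0.53 for day 28 against day 1 in AGY1611 (range -2.88 to 0.53) and 1.30 for the strain difference at day 1 (range -1.99 to 1.30), which was 0.018 with voom. RNR2 at day 1 kept its direction in all settings, with log2 changes of -2.72 to -2.05 in AGY1612 (past the threshold in 17 of 28) and -2.87 to -1.84 in AGY1611 (13 of 28).

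Scaling moved the median of all plasmids at day 28 against T0, which was 0.19 (TMM), 0.03 (RLE) and -0.11 (total counts) in AGY1612 and 0.16, -0.02 and -0.14 in AGY1611. The plasmids past the threshold there were 317 higher and 584 lower with TMM, 202 and 622 with RLE and 118 and 673 with total counts in AGY1612, and 231 and 428, 113 and 453, and 71 and 485 in AGY1611. Depth limits RNR2 in AGY1611 at day 28 and SML1 throughout.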
